A study of Mus musculus with 6 samples.

Results

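The genes described here are those of glycolysis, gluconeogenesis, the pentose phosphate pathway and the enzymes that form NADPH, 50 in all. They were chosen by name from the pathways, with earlier results of these data known. A gene counted as measured where a row of the deposited table was annotated with its symbol alone, and the brightest such row over the 6 arrays was used. This gave 43 of the 50, among 22180 genes tested in all. Aldoa, Tkt and Pgm1 had only rows shared with other symbols, and Gpi1, Eno1, Pfkfb1 and G6pdx had no annotated row, so these 7 were not analysed here. Of the 43, 37 had a mean signal above the median of all genes, 6 lay below it and 0 below the 0.25 quantile, and no filter on low signal was applied. The arrays came from 1 mouse acute myeloid leukaemia line, PU.1low URE-/-, established from a leukaemic animal without the upstream regulatory element (URE) of Spi1, the gene of the transcription factor PU.1. Every array therefore carries that deletion and low PU.1, and no cells with an intact element were among them. The 3 vehicle arrays are of cells given water and the 3 DB2313 arrays of cells given the PU.1 inhibitor DB2313 at 330 nM, both for 24 h, in medium with serum and the supernatants of WEHI and BHK cells. The labels call the arrays biological replicates without saying whether cultures were started separately, so each p-value reflects only how far these samples spread, which may be technical.

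Glycolysis splits glucose into pyruvate, which is reduced to lactate or enters mitochondria, and gluconeogenesis runs the same route backwards around its irreversible steps with enzymes of its own. The pentose phosphate pathway branches off at glucose phosphate and forms ribose and NADPH, the reducing agent of lipid synthesis, of glutathione recycling and of the oxidase of phagocytes. Cytosolic malic enzyme and the NADP-dependent isocitrate dehydrogenases are further sources of NADPH. PU.1 is an ETS factor of myeloid and B cell development, and DB2313 is a small molecule that binds the minor groove of DNA beside PU.1 sites.

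The 6 arrays had nearly equal medians of signal over all rows, between 4.77 and 4.82 (log2). Of 8 markers of granulocyte-monocyte progenitors, 6 had a signal above the median of all genes, led by Elane, the neutrophil elastase gene, while Cd34 and Ptprc lay below it. None of 4 T cell markers, of 3 measured B cell markers and of 3 measured megakaryocyte markers lay above that median. Above it lay 3 of 6 neutrophil markers, 3 of 5 measured monocyte and macrophage markers, 2 of 4 fibroblast markers and 1 of 2 measured erythroid markers. A signal above the median was therefore not particular to progenitor markers. No progenitor marker passed the test, and of 6 neutrophil markers S100a8 alone was lower (log2 fold change -0.63, adjusted p = 0.0333). Spi1 itself fell by 0.37 on the log2 scale (SE 0.064, limma adjusted p = 0.0342), a call that was lost whichever array was left out, with an adjusted p between 0.0648 and 0.134. In RNA from whole cultures, fewer cells of a type and less RNA per cell cannot be told apart.

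The comparison asked which steps of sugar and NADPH metabolism differ in transcript level between DB2313 and vehicle. Me1, the cytosolic malic enzyme, and Fbp1, the bisphosphatase that reverses the phosphofructokinase step, fell with DB2313, with log2 fold changes of -1.46 and -1.28. Pgam1, a glycolytic phosphoglycerate mutase, fell by 0.41, and Pck2, the mitochondrial phosphoenolpyruvate carboxykinase, was 1.61-fold higher. The other 39 measured genes did not pass an adjusted p of 0.05 in limma. The 4 genes are 9.30% of the 43, where 1.81% of all genes passed. Since the genes were chosen with earlier results of these data known, such shares are descriptions and not tests. Without Me1, 1 of 42 measured genes was called higher and 2 were called lower (Fbp1 and Pgam1), where 1.02% and 0.789% of all genes were. Leaving out Me1 does not undo the choice of genes, since Fbp1 was chosen in the same way. In the upward direction 1 of 43 passed (2.33%, against 1.02% of all genes), and in the downward direction 3 of 43 (6.98%, against 0.789%). The 43 genes are brighter than most, with 37 above the median signal of all genes. When only genes above that median were tested, 5 of 37 passed, against 799 of 11090 genes. Of these, 3 were higher (against 436) and 2 lower (against 363). For 14 of the 43 genes the groups did not overlap, with every DB2313 array on the same side of every vehicle array (32.6%, against 19.3% of all genes). DB2313 was the lower group for 8 genes (18.6%, against 9.55%) and the higher for 6, where 9.75% of all genes were higher in this way. Without adjustment, 11 of the 43 had a p under 0.05, or 25.6%, against 12.7% of all genes. The median log2 fold change was -0.03 over the 43 genes and -0.0024 over all genes, and 53.5% of the 43 lay below 0, against 50.8%.

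**Figure D1:**
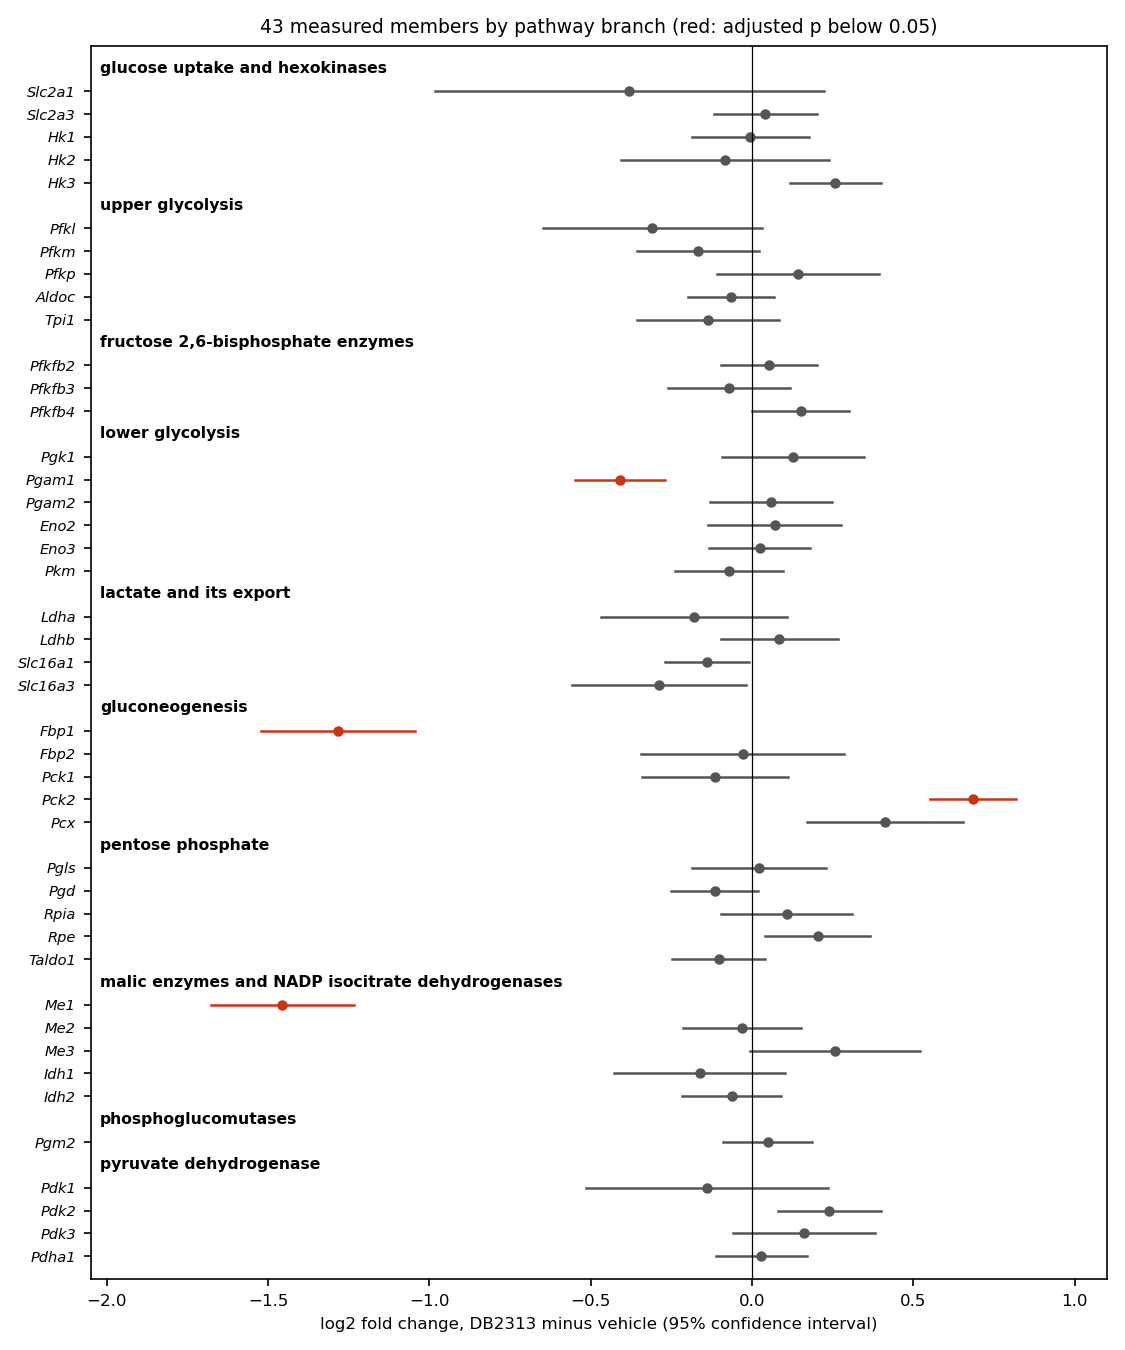
Log2 fold change (DB2313 minus vehicle, horizontal axis) with its 95% confidence interval from limma for the 43 measured genes, grouped by pathway branch, with genes past an adjusted p of 0.05 in red. Me1 and Fbp1 lie far to the left at -1.46 and -1.28, Pgam1 at -0.41 and Pck2 to the right at 0.68, while the other genes lie between -0.38 and 0.41.

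The branches are described by their medians, and no branch was tested as a whole. Branch medians of the log2 fold change lay between -0.16 for lactate formation and export (4 genes) and 0.09 for pyruvate dehydrogenase and its kinases (4 genes). They were -0.14 for upper glycolysis (5 genes, 4 of them below 0), 0.04 for lower glycolysis (6 genes), -0.03 for gluconeogenesis (5 genes) and 0.02 for the pentose phosphate pathway (5 genes). For glucose uptake and hexokinases (5 genes) the median was -0.0057, for the malic enzymes and isocitrate dehydrogenases -0.06 (5 genes), and for the enzymes that set the regulatory fructose bisphosphate 0.05 (3 genes). In gluconeogenesis the members went furthest apart, from -1.28 to 0.68.

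Of the 5 measured malic enzymes and NADP-dependent isocitrate dehydrogenases, Me1 was the gene past the threshold. G6pdx, whose product forms the first NADPH of the pentose phosphate pathway, is among the genes not analysed here. The signal of Me1 was 8.75, 8.54 and 8.45 on the vehicle arrays and 7.03, 7.12 and 7.23 on the DB2313 arrays (log2). All 3 DB2313 values lay more than 1 log2 unit below the lowest vehicle value, and the fall was 2.74-fold, from 8.58 ± 0.16 to 7.13 ± 0.10 (SD, n = 3). On the log2 scale the change was -1.46, with an SE of 0.095 and an adjusted p of 0.000755, which ranks Me1 16th of 22180 genes by p and 12th by size of fall. It passed whichever array was left out (adjusted p up to 0.00690) and did not pass in the test per gene without moderation (adjusted p = 0.0517). Me1 turns malate into pyruvate in the cytosol and yields NADPH. The mitochondrial paralog Me2, which mainly uses NAD, had 9.13, 9.26 and 9.07 in vehicle and 9.03, 9.21 and 9.12 with DB2313, and the groups overlapped. Its log2 fold change was -0.03, with a 95% confidence interval from -0.21 to 0.15. Me3, the mitochondrial form that uses NADP, lay below the median of all genes, with 4.71, 4.69 and 4.52 in vehicle and 4.86, 4.70 and 5.12 with DB2313. Its log2 fold change was 0.26 (interval -0.0056 to 0.52, adjusted p = 0.405), and its second row had -0.07.

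The isocitrate dehydrogenases gave overlapping groups. Idh1, the cytosolic and peroxisomal form, had a log2 fold change of -0.16 (interval -0.43 to 0.10). Its values were 9.64, 9.76 and 9.62 in vehicle and 9.45, 9.76 and 9.32 with DB2313. The DB2313 values of 9.45 and 9.32 lay below every vehicle value, and that of 9.76 equalled the highest. Idh2, the mitochondrial form, had -0.06 (interval -0.22 to 0.09). The change of Me1 was set against those of Pgd, Idh1, Idh2, Me3 and Me2, the last of which mainly uses NAD. Each of these 5 comparisons took the difference of signals within an array. As a difference of log2 fold changes, Me1 minus Pgd was -1.34, and the differences were -1.29 against Idh1, -1.39 against Idh2, -1.42 against Me2 and -1.71 against Me3. In each of the 5, all 3 DB2313 arrays lay below all 3 vehicle arrays, which gives an exact 2-sided permutation p of 0.1 (0.1 after adjustment over the 5), the smallest that 3 against 3 arrays can give. The test could therefore not reach 0.05 whatever the values. The Me1 groups alone lay far apart, and any gene that varied less than that gap gives the same separation. The 5 comparisons thus repeat the separation of Me1 and are not 5 separate findings. The 95% confidence interval of the change of Me1, -1.68 to -1.23, lay wholly below those of Pgd (-0.25 to 0.02), Idh1, Idh2, Me2 and Me3.

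**Figure D2:**
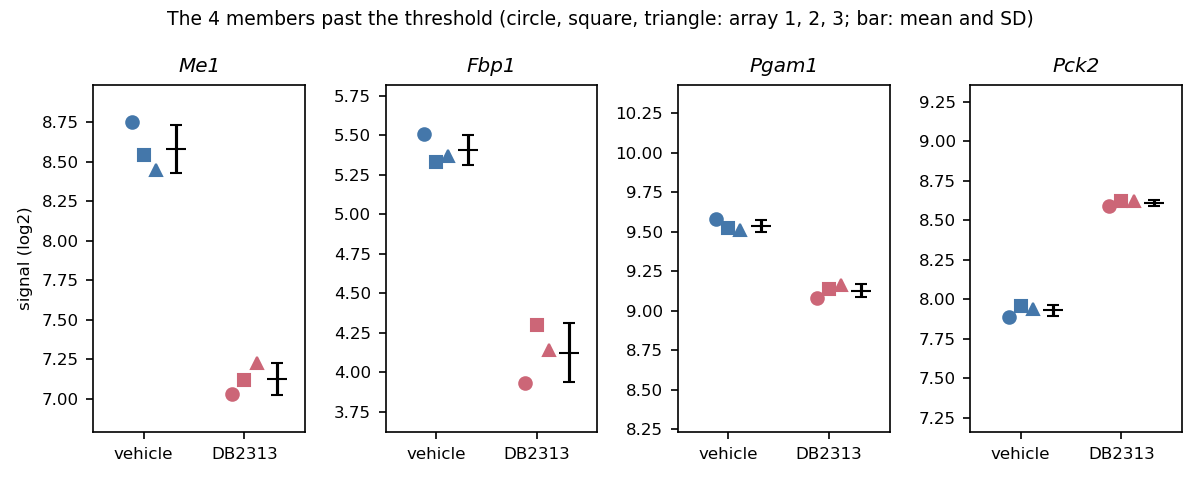
Signal (log2, vertical axis, each panel spanning the same range) of Me1, Fbp1, Pgam1 and Pck2 on the 3 vehicle arrays (blue) and the 3 DB2313 arrays (red), with the array number as circle, square or triangle and the mean and SD as a black bar. The groups do not overlap for any of the 4, with DB2313 lower for Me1, Fbp1 and Pgam1 and higher for Pck2.

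In gluconeogenesis, Fbp1 fell and Pck2 rose. Fbp1 had 5.51, 5.33 and 5.37 in vehicle and 3.93, 4.30 and 4.14 with DB2313 (log2), so every DB2313 value lay about a log2 unit or more below every vehicle value. Its mean went from 5.40 ± 0.09 to 4.12 ± 0.18 (SD, n = 3), which is -1.28 on the log2 scale with an SE of 0.103 and an adjusted p of 0.00165, the 15th largest fall of all genes. The vehicle level lay just above the median of all genes, 5.17, and the DB2313 level just above the 0.25 quantile, 3.89. After 32 was added to the linear signals, which damps dim genes, the log2 fold change was -0.59 (adjusted p = 0.00109), and without moderation the call was lost (adjusted p = 0.0645). It passed whichever array was left out (adjusted p up to 0.0136). Fbp2, the form of muscle, had 5.07, 4.89 and 5.42 in vehicle and 5.07, 4.99 and 5.22 with DB2313, which overlap, and a log2 fold change of -0.03 (interval -0.34 to 0.28).

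Pck2 converts oxaloacetate to phosphoenolpyruvate inside mitochondria. Its signal was 7.89, 7.96 and 7.94 in vehicle and 8.59, 8.62 and 8.62 with DB2313, so the arrays of each group lay within 0.1 of each other and the groups were far apart. The rise was 0.68 on the log2 scale, with an SE of 0.057 and an adjusted p of 0.00195, and Pck2 passed under each of the 15 alternatives run (adjusted p up to 0.0205). Pck1, the cytosolic form of liver and kidney, had -0.11 (interval -0.34 to 0.11) with overlapping groups. Pcx, pyruvate carboxylase, which supplies the oxaloacetate for the carboxykinases, had 5.03, 5.28 and 5.02 in vehicle and 5.53, 5.37 and 5.67 with DB2313. All its DB2313 values lay above the vehicle values, but the log2 fold change of 0.41 (interval 0.17 to 0.65) did not pass (adjusted p = 0.134). Pcx passed when only genes above the median signal were tested (adjusted p = 0.0476), and in none of the 14 other alternatives.

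To show the promoters of the genes that moved most, the 250 bases before the RefSeq start (GRCm38.p6) are given for Fbp1, Me1 (the start farther upstream of its 2) and Pck2, and for Slc2a1 and Ldha, which are taken up below. Capitals mark matches, on either strand, to AGGAAGT (an ETS site as PU.1 binds it), TGACNNNGC (the antioxidant response element bound by NRF2), TGATGNAAT (an ATF4 composite site), CACGTG (the E-box bound by MYC) or ACGTG (the core bound by hypoxia-inducible factors, which every E-box match contains).
Fbp1, chr13:62888283-62888532, minus strand: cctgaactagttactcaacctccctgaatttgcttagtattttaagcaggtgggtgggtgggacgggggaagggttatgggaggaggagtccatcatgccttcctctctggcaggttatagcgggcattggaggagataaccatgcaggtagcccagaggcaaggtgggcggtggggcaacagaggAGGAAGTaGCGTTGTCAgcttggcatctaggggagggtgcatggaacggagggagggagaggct
Me1, chr9:86695915-86696164, minus strand: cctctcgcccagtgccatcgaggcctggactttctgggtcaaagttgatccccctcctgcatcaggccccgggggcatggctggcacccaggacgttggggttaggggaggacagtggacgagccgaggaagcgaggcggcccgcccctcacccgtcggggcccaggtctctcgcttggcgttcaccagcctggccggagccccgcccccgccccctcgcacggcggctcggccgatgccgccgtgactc
Pck2, chr14:55540016-55540265, plus strand: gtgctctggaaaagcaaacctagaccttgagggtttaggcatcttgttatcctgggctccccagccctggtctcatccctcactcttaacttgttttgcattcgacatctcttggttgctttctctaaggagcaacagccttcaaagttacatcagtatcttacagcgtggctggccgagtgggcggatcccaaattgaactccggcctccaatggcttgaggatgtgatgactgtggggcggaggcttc
Slc2a1, chr4:119108495-119108744, plus strand: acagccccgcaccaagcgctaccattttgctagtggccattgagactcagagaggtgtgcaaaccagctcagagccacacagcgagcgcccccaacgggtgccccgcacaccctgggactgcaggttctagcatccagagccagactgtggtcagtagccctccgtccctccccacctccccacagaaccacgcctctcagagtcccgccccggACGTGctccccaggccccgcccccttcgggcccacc
Ldha, chr7:46845554-46845803, plus strand: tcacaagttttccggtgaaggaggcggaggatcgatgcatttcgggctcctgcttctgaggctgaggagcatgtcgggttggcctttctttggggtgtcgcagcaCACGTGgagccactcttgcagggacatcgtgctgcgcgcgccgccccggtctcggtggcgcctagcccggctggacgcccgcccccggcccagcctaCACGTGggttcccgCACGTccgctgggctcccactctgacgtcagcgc
In the Fbp1 window an ETS match begins 64 bases before the start and is followed by an antioxidant-type match that begins 56 bases before it. The Me1 and Pck2 windows shown hold none of the 5 motifs, and the Slc2a1 window holds 1 ACGTG match. The Ldha window shown, at the farther upstream of its 2 starts, holds 2 E-boxes and 5 ACGTG matches. Of these, 4 lie within the E-boxes, each of which was counted on both strands. The window at the other Ldha start holds none of the 5 motifs, and that at the other Me1 start holds 1 ACGTG match. Over the 41 measured genes with a window (any of a gene's starts), 4 had the ETS motif (9.76%, against 8.80% of 27025 genes), 4 the antioxidant motif (9.76%, against 11.5%) and 0 the ATF4 motif (against 0.910%). The E-box was found for 8 of 41 (19.5%, against 6.86%) and ACGTG for 18 of 41 (43.9%, against 18.5%). Among the 12 measured genes whose shared order of arrays is described below, 2 had the E-box (16.7%) and 5 had ACGTG (41.7%). A match is a description of the letters and not of binding.

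In lower glycolysis Pgam1 was the gene past the threshold. It had 9.58, 9.52 and 9.51 in vehicle and 9.08, 9.14 and 9.16 with DB2313, which do not overlap, and fell by 0.41 on the log2 scale, with an SE of 0.0595 and an adjusted p of 0.0181. A second Pgam1 row had 8.01, 7.94 and 8.08 against 7.64, 7.84 and 7.77, a log2 fold change of -0.26 that did not pass (adjusted p = 0.200 over all rows). Pgam1 has processed copies of near-identical sequence, and whether the probe sets share sequence with them was not tested. The call was lost whichever array was left out, with an adjusted p between 0.0590 and 0.0794, and with the mean of both rows (log2 fold change -0.33, adjusted p = 0.0509). The muscle form Pgam2, at 4.07 ± 0.12 in vehicle and 4.13 ± 0.08 with DB2313 (SD, n = 3), had 0.06. Pgk1, phosphoglycerate kinase, had 0.13 (interval -0.09 to 0.35), and Pkm, pyruvate kinase, -0.07 (interval -0.24 to 0.10). The enolases Eno2 and Eno3 had 0.07 and 0.02, and none of these 5 passed.

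Glucose uptake, phosphorylation and upper glycolysis gave 0 genes past the threshold of 10 measured in limma, with Hk3 as the single gene at an unadjusted p under 0.05. Slc2a1, the main glucose transporter of proliferating blood cells, had 8.88, 9.73 and 9.35 in vehicle and 8.49, 9.35 and 8.98 with DB2313. The groups overlapped, since each spread over more than 0.8, and the log2 fold change of -0.38 had an interval from -0.98 to 0.22 (adjusted p = 0.619). Between same-numbered arrays, though, Slc2a1 was lower with DB2313 each time, by differences of -0.39, -0.38 and -0.37. Pfkl, the liver-type phosphofructokinase, had 9.31, 9.70 and 9.53 in vehicle against 8.92, 9.40 and 9.30, a log2 fold change of -0.31 (interval -0.65 to 0.03) and differences of -0.39, -0.30 and -0.23 between same-numbered arrays. Hk2, Pfkm, Aldoc, Tpi1, Pgam1, Pkm, Ldha, Slc16a1 and Slc16a3 also had lower values with DB2313 in all 3 such pairs. Others went the other way in all 3 pairs: Pfkp (0.19, 0.11 and 0.13), Pgk1 (0.14, 0.14 and 0.10), Hk3 and Pfkfb4. The share of all genes on 1 side in all 3 pairs was not counted. Pfkp, the platelet type, had 0.14 (interval -0.11 to 0.39) and the muscle type Pfkm -0.17 (interval -0.36 to 0.02). Tpi1, triosephosphate isomerase, had -0.14, and the aldolase gene Aldoc -0.07. Hk3, a hexokinase of myeloid cells, had 10.17, 10.10 and 10.12 in vehicle and 10.43, 10.34 and 10.40 with DB2313. All its DB2313 values lay above the vehicle values, and the log2 fold change of 0.26 (interval 0.12 to 0.40) did not pass (adjusted p = 0.104), though it did under 3 of 15 alternatives. Hk1 had -0.0057 (interval -0.19 to 0.18), Hk2 -0.08 (interval -0.40 to 0.24) and the transporter Slc2a3 0.04. Among the enzymes that make or remove the regulatory fructose bisphosphate, Pfkfb4 had 0.15 (interval 0.0008 to 0.30, adjusted p = 0.390), Pfkfb2 0.05 and Pfkfb3 -0.07.

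The spread within groups followed the array number in these genes, a pattern noticed after the values were seen. For 12 of the 43 genes, array number 2 was the highest and array number 1 the lowest in vehicle and in DB2313 alike, 27.9% against 4.14% of all genes. The 12 were all 5 measured genes of upper glycolysis (Pfkl, Pfkm, Pfkp, Aldoc and Tpi1), then Slc2a1, Hk1, Hk2, Ldha, Slc16a3, Pgd and Pdk1. Slc2a1 was higher on array 2 than on array 1 by 0.85 in vehicle and by 0.86 with DB2313, which is more than its difference between the groups. Pdk1 differed by 0.38 and 0.54 between those arrays, and Ldha by 0.33 and 0.41. In a list of hypoxia-inducible factors and further hypoxia target genes, 10 of 17 measured had the same order (58.8%). Named after their values were seen, Ndrg1 differed between arrays 2 and 1 by 1.30 in vehicle and 1.63 with DB2313, and Bnip3, a mitophagy gene, by 1.22 and 1.59. That order was found for 0 of 6 genes of lower glycolysis, 0 of 3 enzymes of the regulatory fructose bisphosphate, 0 of 5 genes of gluconeogenesis and 0 of the 5 malic enzymes and isocitrate dehydrogenases. Lower glycolysis still had a median of array 2 minus array 1 of 0.13 in vehicle and 0.10 with DB2313. Over all genes those medians were 0.02 and 0.0020, so the count of 0 does not mean that this branch was free of the pattern. Across all genes, the deviations of same-numbered arrays from their group means were nearly unrelated (Pearson's r of 0.02, 0.08 and 0.0083 for numbers 1, 2 and 3). Across the 43 genes they had r of 0.58, 0.61 and 0.08, where genes are not independent replicates. The labels give no batch for the array numbers, and what the arrays of a number share was not tested.

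**Figure D3:**
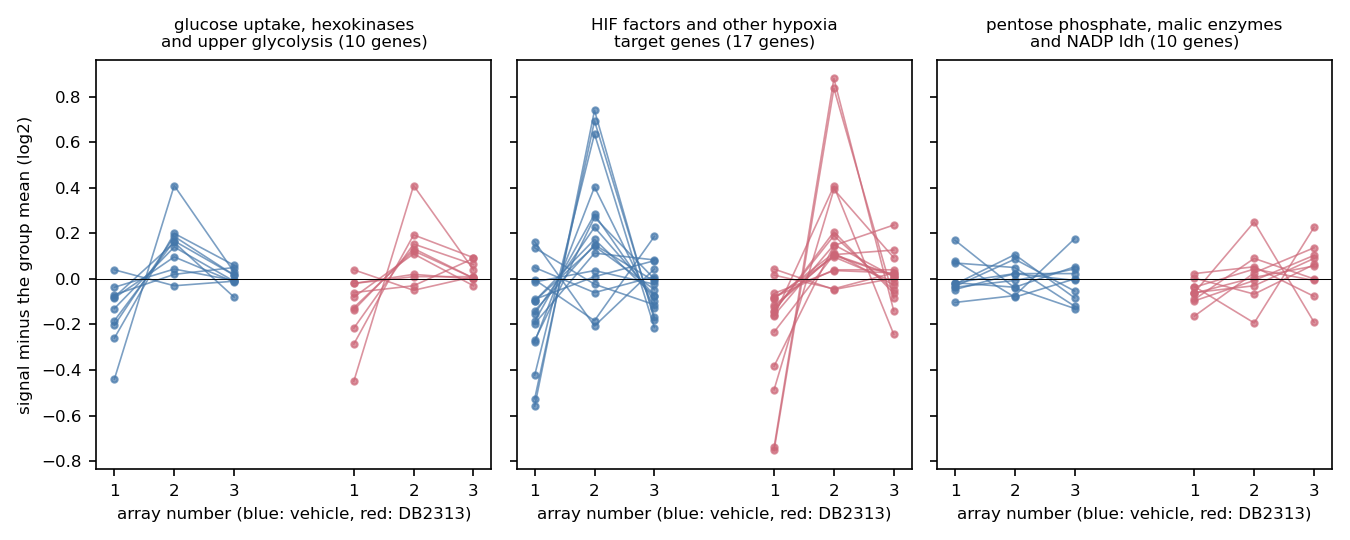
Signal minus the mean of its group (log2, vertical axis) by array number (horizontal axis, vehicle in blue and DB2313 in red), with lines joining the 3 arrays of a gene in a group. In the left and middle panels most genes are highest on array 2 and lowest on array 1 in both groups (8 of 10 genes of uptake, hexokinases and upper glycolysis, 10 of 17 hypoxia list genes), and in the right panel 1 of 10 genes is.

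Lactate formation and export and pyruvate entry gave 0 genes past the threshold of 8 measured in limma, with Slc16a1, Slc16a3 and Pdk2 at an unadjusted p under 0.05. Ldha, the lactate dehydrogenase subunit that favours lactate, had a log2 fold change of -0.18 (interval -0.47 to 0.11) and Ldhb 0.08. The lactate carrier Slc16a1 had 10.19, 10.19 and 10.20 in vehicle and 10.03, 10.07 and 10.07 with DB2313. All 3 DB2313 values were lower, by a log2 fold change of -0.14 (interval -0.27 to -0.0097) that did not pass (adjusted p = 0.359, with 2 of 15 alternatives past the threshold). The exporter Slc16a3 had -0.29 (interval -0.56 to -0.02, adjusted p = 0.361), with 9.56, 9.82 and 9.67 in vehicle overlapping 9.20, 9.62 and 9.36. Of the kinases that switch off pyruvate dehydrogenase, Pdk2 had 7.38, 7.28 and 7.21 in vehicle and 7.57, 7.56 and 7.47 with DB2313. Those groups do not overlap, and the log2 fold change was 0.24 (interval 0.08 to 0.40, adjusted p = 0.185). Pdk1 had -0.14, Pdk3 0.16 and Pdha1, the catalytic subunit itself, 0.03 (interval -0.11 to 0.17). Pgm2, a phosphoglucomutase, had 0.05 (interval -0.09 to 0.19).

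The pentose phosphate pathway gave 0 genes past the threshold of 5 measured in limma, with Rpe at an unadjusted p under 0.05. Pgd, the second NADPH-forming enzyme of its oxidative branch, had 11.75, 11.79 and 11.76 in vehicle and 11.61, 11.69 and 11.64 with DB2313. All DB2313 values were lower, with a log2 fold change of -0.12 (interval -0.25 to 0.02, adjusted p = 0.470). Pgls, the lactonase between both dehydrogenases, had 0.02 in its brighter row (interval -0.19 to 0.23) and 0.24 in its other row. In the non-oxidative branch, the epimerase gene Rpe had 9.11, 8.95 and 9.03 against 9.26, 9.29 and 9.16, which do not overlap, and a log2 fold change of 0.20 (interval 0.04 to 0.37, adjusted p = 0.274). The isomerase gene Rpia had 0.11 and the transaldolase gene Taldo1 -0.10 (interval -0.25 to 0.04). The intervals of all 5 genes leave out a change of the size seen for Me1, which is the largest fall among the 43 genes.

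Other genes of these pathways were taken from 7 lists, whose counts stand against 1.81% of all genes past the threshold (1.02% higher and 0.789% lower). Of 20 measured glycogen and hexosamine genes, 1 passed as higher and 2 as lower. Phkb, the regulatory beta subunit of phosphorylase kinase, had 8.58, 8.68 and 8.66 in vehicle and 9.53, 9.60 and 9.58 with DB2313, a rise of 0.93 on the log2 scale (SE 0.060, adjusted p = 0.000755). Pygl, the liver-type glycogen phosphorylase that this kinase activates, fell by 0.63 (adjusted p = 0.0468), a call kept without DB2313 replicate 2 and lost without any other array (adjusted p up to 0.169). Ugdh, which oxidises UDP-glucose to UDP-glucuronate, fell by 0.77 (adjusted p = 0.00139). Of 12 genes of folate metabolism, NAD kinases and transhydrogenase, Nadk2, the mitochondrial NAD kinase, passed as higher and none passed as lower. DB2313 lay wholly below vehicle for 6 of the 12 and wholly above for 1, against 9.55% and 9.75% of all genes. Without adjustment, 3 of the 12 had a limma p under 0.05, against 12.7% of all genes. Nadk2 had 7.57, 7.80 and 7.69 in vehicle and 8.31, 8.27 and 8.37 with DB2313, a rise of 0.63 on the log2 scale (SE 0.076, adjusted p = 0.00873, and 0.0510 without DB2313 replicate 3). Of 26 further genes of glycolysis, fructose use and gluconeogenesis, the lysosomal hexose transporter Slc2a6 fell by 0.48 (adjusted p = 0.0203) and none passed as higher.

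Of 21 measured regulators of glucose metabolism, 2 passed as lower and 1 as higher, again where 1.81% of all genes passed. Pparg, a nuclear receptor of lipid storage, had 6.19, 6.55 and 6.50 in vehicle and 4.37, 4.58 and 4.49 with DB2313, and fell by 1.94 (adjusted p = 0.000449), or by 1.11 with an offset of 32. Arrdc4, an arrestin-like gene induced by glucose, fell by 0.45 (adjusted p = 0.0298), and Ppargc1b, a coactivator of mitochondrial genes, rose by 0.36 (adjusted p = 0.0455). Slc2a6, Arrdc4 and Ppargc1b did not pass whichever array was left out, with an adjusted p between 0.0570 and 0.169, nor Ppargc1b after quantile normalization (adjusted p = 0.0820). In limma 0 of 33 genes of pyruvate entry, the citric acid cycle and the malate shuttle passed, 0 of 14 NRF2 pathway genes and 0 of 17 hypoxia genes. At an unadjusted p under 0.05 these lists had 2, 3 and 2 genes, where 12.7% of all genes had such a p. The smallest p in each were those of Slc25a13, an aspartate-glutamate carrier (log2 fold change 0.27, adjusted p = 0.234), Abcc1, an export pump (-0.16, adjusted p = 0.317), and Mxi1, a MAX partner (0.28, adjusted p = 0.211). Of the 17 hypoxia genes 10 lay below 0, and the lowest values, picked out afterwards, were those of Bnip3 (-0.63, interval -1.62 to 0.37) and Ndrg1 (-0.60, interval -1.64 to 0.44). Ndrg1 had 9.28, 10.58 and 9.66 in vehicle and 8.50, 10.12 and 9.10 with DB2313, so the groups overlapped while each DB2313 value lay below the same-numbered vehicle value. Medians of the 7 lists lay between -0.06 and 0.03.

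**Figure D4:**
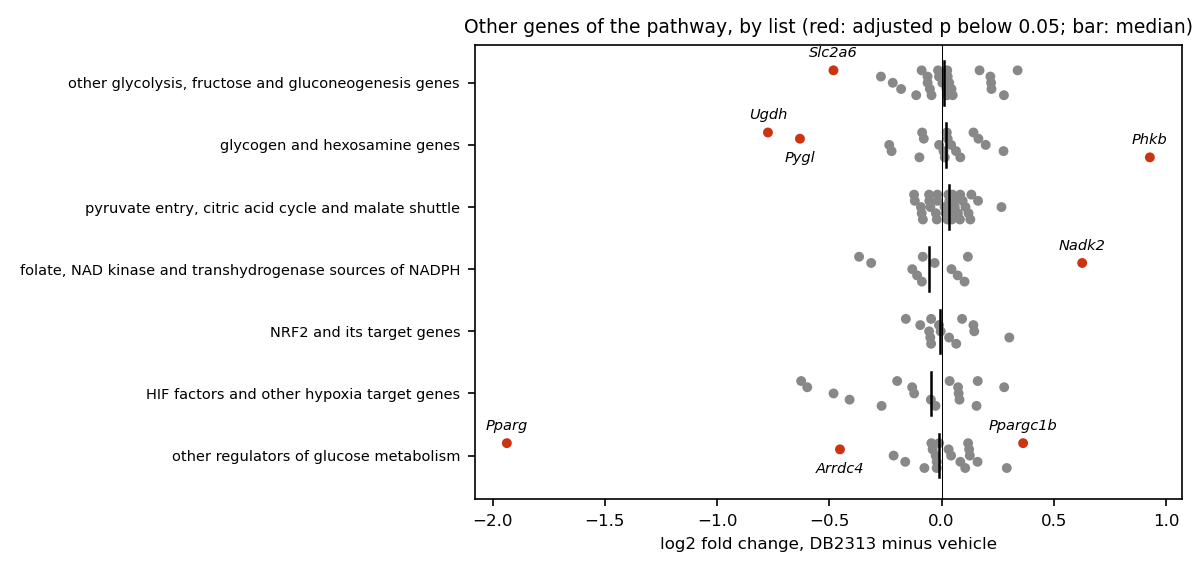
Log2 fold change (DB2313 minus vehicle, horizontal axis) of the measured genes in 7 lists of other pathway genes (rows), with genes past an adjusted p of 0.05 in red and the list median as a black bar. The 8 red genes lie from -1.94 (Pparg) to 0.93 (Phkb), and every list median lies within 0.06 of 0.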

How the data were processed

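Total RNA was hybridised to Affymetrix arrays, and Affymetrix Expression Console was used, per the submitters' processing notes. The deposited table holds log2 values, as judged from their range, for 41345 rows on 6 arrays. How signals were background-corrected, summarised and normalized, and the genome build, were not stated in the sources used here. The platform annotation gave 1 symbol for 23521 rows, several for 1814 and none for 16010. Rows with 1 symbol were used, the brightest per gene, and 1082 genes had several. By gene identifier 21994 of the 22180 genes, and all 43 described, matched RefSeq.

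Groups were compared with limma 3.58.1 in R 4.3.3 (lmFit, eBayes, group only, 2-sided), with Benjamini-Hochberg adjustment over 22180 genes at 0.05 and 95% confidence intervals. The prior had 3.61 degrees of freedom. The fit was tested on simulated data. With 3 arrays a group, their number limits the precision. The genes and lists were chosen with earlier results of these data known, so counts are given beside the share of all genes. All 50 genes could be named. Each list added its up to 4 largest changes past the threshold, or its 2 smallest p, and others are said to be chosen afterwards. Promoter windows came from RefSeq GRCm38.p6. Alternatives were 2 signal filters, quantile normalization, median centring, an offset of 32, a trended robust prior, a block on replicate number, all rows of a gene averaged, an unmoderated test and each array left out.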

Additional observations from a re-analysis of the deposited data

How the results depend on the processing

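Across 15 alternatives, Pck2 kept its call and direction in all, Me1 in 14 and Fbp1 in 13 of 14, since Fbp1 lies below the median signal and drops out of 1. Pgam1 kept its call in 6. In the 4 genes and in the other 39, no called value changed sign. The count of the 43 genes past the threshold was 4, and lay between 3 and 6 except without moderation (1, with 0 lower). Among genes above the median signal, 3 of 37 were higher, and 2 of 43 with the offset of 32 or with the trended and robust prior, against 1. Over all genes the count was 401 (226 higher, 175 lower). It was 799 (436 and 363) when only genes above the median signal were tested, 830 (467 and 363) with the offset, 920 (496 and 424) with the trended and robust prior and 70 (42 and 28) without moderation. Leaving out each array in turn gave 136 to 187 genes, 72 to 108 higher and 63 to 85 lower. The largest losses came without DB2313 replicate 3 (136) and without vehicle replicate 1 (142). The median log2 fold change of gluconeogenesis was 0.41 over the 3 genes above the median signal, and lay between -0.12 and 0.12 with an array left out. That of the pentose phosphate pathway was 0.11 with the mean of rows and between -0.031 and 0.11 with an array left out, and that of the 43 genes then lay between -0.048 and 0.019. The differences between Me1 and the 5 genes it was set against kept their sign throughout.

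With the replicate number as a block, 190 genes passed (98 higher, 92 lower), with 3 of the 43: Me1 (adjusted p = 0.0150), Fbp1 (0.0201) and Pck2 (0.0205). Pgam1 had 0.0829 and Slc2a1, at -0.38, had 0.0805 against 0.619 without the block. Slc2a6 (0.0554), Arrdc4 (0.0859), Ppargc1b (0.0946) and Spi1 (0.113) did not pass. Same-numbered arrays deviated together with r of 0.02, 0.08 and 0.0083 over all genes, below the 0.1 in every pair that was asked for treating the numbers as pairs, so the block is an alternative here. Over the 17 hypoxia genes r was 0.71, 0.89 and 0.63, and the labels do not say what a number marks. The order of array numbers was counted again after seeing the data, and held for 11 of the 43 genes after quantile normalization, 9 after median centring and 11 with the mean of rows, against 12. Scanner files were not used here, so signal over background could not be judged.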
